A study of Mus musculus with 15 samples.

Results

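The SLC25 family holds the solute carriers of the inner mitochondrial membrane, and its transcripts were followed here in a mouse dendritic cell line exposed to a contact allergen, an oxidant and an inhibitor. Members were all genes whose symbol starts with Slc25a and to which the platform annotation assigned at least 1 probe set of its own. This gave 44 of the 18193 singly annotated genes, measured by 93 probe sets, and each gene was represented by its probe set of highest mean over the 15 arrays. Of the 44, 40 passed a filter on low signal (a mean log2 signal of at least 6.22) and entered the tests with 12701 genes in all. Slc25a31, Slc25a35, Slc25a41 and Slc25a54 did not pass it.

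The 5 groups had 3 arrays each, all of total RNA from one dendritic cell line that was established from newborn epidermis of the A/J mouse strain. Cells were treated with diphenyleneiodonium (DPI), an inhibitor of NADPH oxidases and other flavoenzymes that is called an inhibitor of reactive oxygen species in the design, together with DNFB (2,4-dinitrofluorobenzene). The other groups received DNFB alone, a contact allergen that reacts with protein thiols and amines, hydrogen peroxide (H2O2) alone, DPI alone, or no treatment. The control arrays are labelled non-treated, whereas the series' design speaks of vehicle. Doses and exposure times are not given in the labels used here, and nothing says that replicates came from separate cultures, so the spread that p-values rest on may be technical.

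Carriers of this family share a fold of repeated transmembrane helix pairs and move nucleotides, phosphate, amino acids, carboxylates and cofactors between cytosol and mitochondrial matrix. They tie ATP export, the transfer of reducing equivalents and nucleotide supply for mitochondrial DNA and RNA to the state of the cytosol. Dendritic cells change their mitochondrial metabolism when they are activated, and most carriers are encoded in the nucleus by genes that many cell types express.

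Dendritic cell identity and array quality were examined first. Of 18 dendritic cell markers 17 passed the filter on low signal, the exception being Ccr7, a receptor found on migrating dendritic cells. Of the markers of other cell types, 3 of 9 keratinocyte, 3 of 8 fibroblast, 3 of 6 melanocyte and 2 of 5 T cell genes passed it. Krt14, Krt1 and Krt10, which define keratinocytes, were below the filter, whereas Krt5, Trp63 and Lor passed it. Krt5 averaged 195 with DPI + DNFB and 263 with DNFB, against 81.9 without treatment, and rose in both (log2 1.28 ± 0.458, adjusted p = 0.0363 and log2 1.73 ± 0.458, adjusted p = 0.0081). Trp63 rose with DPI + DNFB (log2 1.17 ± 0.408, adjusted p = 0.0327), and no keratinocyte marker passed with H2O2 or DPI. The summed signal of keratinocyte markers was 460.2 to 994 with DPI + DNFB, 539 to 761 with DNFB, 520.3 to 616 with H2O2, 449.8 to 629 with DPI and 340.2 to 556 without treatment. That of fibroblast markers was 1532 to 1895 with DPI + DNFB, 856 to 1213 with DNFB, 1043 to 1128 with H2O2, 1495 to 1514 with DPI and 1663 to 1771 without treatment, and that of melanocyte markers 1058 to 1833 with DPI + DNFB, 764 to 991 with DNFB, 699.6 to 811 with H2O2, 991 to 1507 with DPI and 1053 to 1229 without treatment. T cell markers summed to 690.4 to 930.4 with DPI + DNFB, 726 to 768 with DNFB, 454 to 741 with H2O2, 434 to 536 with DPI and 831 to 1061 without treatment, and dendritic cell markers to 138575 to 148843 with DPI + DNFB, 109342 to 120129 with DNFB, 129531 to 145376 with H2O2, 118687 to 142968 with DPI and 117351 to 131949 without treatment. Single genes carry some of these sums. Fap gave 552 of the fibroblast sum with DNFB and 1256 without treatment, and Cd2 gave 594 and 821 of the T cell sum (group means). The dendritic cell sum is mostly Cd74 and H2 genes and does not show changes of weaker members. With DNFB, Cd207 averaged 991, against 135 in non-treated cells (log2 2.85 ± 0.435, adjusted p = 5.64e-05), and Csf1r averaged 6749.7, against 16234 (log2 -1.26 ± 0.12, adjusted p = 2.09e-07). Of the 17 tested dendritic cell markers, 3 rose and 5 fell with DPI + DNFB, and 4 rose and 2 fell with DNFB. With H2O2 3 rose and 4 fell, and with DPI 2 and 3. These are 47.1%, 35.3%, 41.2% and 29.4%, beside 33.8%, 24.4%, 28.3% and 31.8% of all genes. Cd83 rose in every treatment group (log2 1.68, 2.43, 3.82 and 1.43 in that order). Cd80 rose with DNFB (2.58), H2O2 (2.4) and DPI (0.97). Cd207 fell with DPI + DNFB and DPI (-1.47 and -1.57). The part of these markers in the carrier results was not tested. Replicate arrays correlated at 0.946 to 0.949 with DPI + DNFB (Pearson's r over genes), the lowest of the groups. In the others r was 0.969 to 0.973 with DNFB, 0.962 to 0.965 with H2O2 and 0.964 to 0.973 with DPI. Without treatment it was 0.969 to 0.973. The deposited arrays had been scaled to a trimmed mean of 250 (6 arrays) or 500 (9 arrays) and were rescaled here to 500. Replicate 1 of every group and DNFB replicate 3 were those at 250. Within the arrays of 250 every group but DNFB is thus a lone array, and within those of 500 DNFB is. Counts within 1 target, given below, assume that a lone array varies like the other groups and are no check by replication. The ratio of 3' to 5' beta-actin signal, a measure of RNA integrity, was 2.07, 1.5 and 2.29 in the DPI + DNFB arrays. It lay between 1.19 and 1.53 in the other 12. The same ratio for Gapdh was 1.09, 0.952 and 1.27 in the DPI + DNFB arrays and 0.814 to 0.922 in the other 12. Replicate 2 of DPI + DNFB was thus within the range of the other arrays for beta-actin and above it for Gapdh. In bulk RNA, fewer cells of a type and less RNA per cell cannot be told apart.

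Carrier transcripts moved in every comparison, and the share that did was close to or below that of all genes in each. All tests were limma's moderated test on log2(signal + 15), adjusted by Benjamini-Hochberg over the 12701 genes, and a gene passed at an adjusted p below 0.05. Fold changes refer to this scale and understate the change of weak genes. With DPI + DNFB, 4 members rose and 10 fell against non-treated cells, 35% of the 40, where 33.8% of all genes passed (15% higher and 18.7% lower). With DNFB, 1 rose and 7 fell, 20% of the members, against 24.4% of all genes (10.5% higher and 13.9% lower). With H2O2, 2 rose and 5 fell, 17.5% of the members, against 28.3% of all genes (10.9% higher and 17.4% lower). With DPI, 4 rose and 7 fell, 27.5% of the members, against 31.8% of all genes (13.3% higher and 18.4% lower). These 4 comparisons share the non-treated arrays. The median log2 change of the 40 members was 0.041 with DPI + DNFB, -0.21 with DNFB, -0.15 with H2O2 and 0.027 with DPI, beside 0.024, -0.055, -0.065 and -0.0065 over all genes tested.

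**Figure D1:**
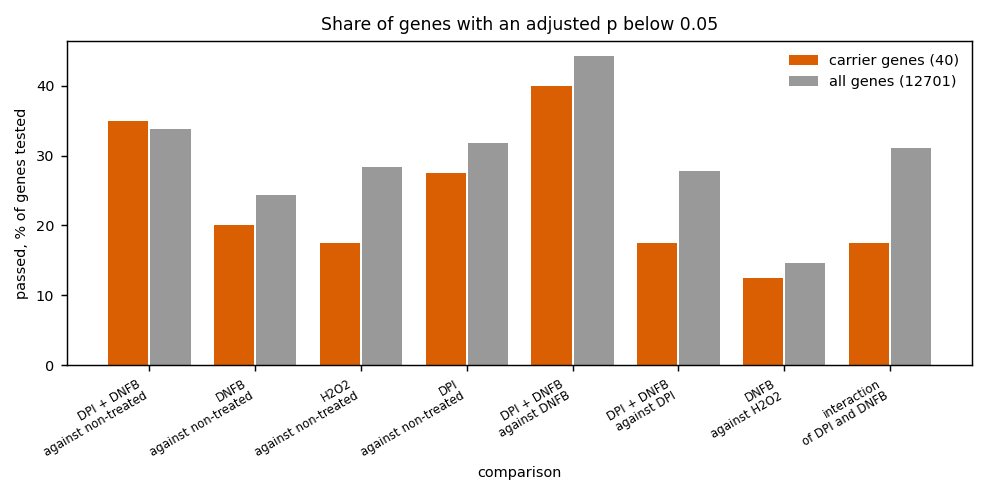
Percent of genes that passed (limma, adjusted p below 0.05) in each of the 8 comparisons, for the 40 carrier genes tested and for all 12701 genes, in bars from 0. The carrier share exceeds that of all genes in 1 comparison, DPI + DNFB against non-treated, at 35% and 33.8%.

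In the comparisons between treatments, 8 members were higher and 8 lower with DPI + DNFB than with DNFB, 40% of the 40, against 44.2% of all genes (22.9% higher and 21.3% lower). Between DPI + DNFB and DPI, 2 were higher and 5 lower, 17.5%, against 27.8% (14.1% higher and 13.7% lower). Between DNFB and H2O2, 2 were higher and 3 lower, 12.5%, against 14.7% (8.75% higher and 6% lower). Slc25a11 and Slc25a16 were the members that passed against non-treated cells in all 4 treatments, each time lower. In all, 25 members passed in at least 1 of the 7 pairwise comparisons and 15 in none. The shares of all genes that passed in at least 1 comparison, or in all 4 treatments, were not computed. These counts therefore have no background to be read against. The groups did not overlap in 66 of the 68 passing pairs of gene and comparison, and the 2 exceptions were both of Slc25a20. Passing rests on the same array values, so the lack of overlap in passing pairs is no separate support. Over all members tested, whether they passed or not, 19 of 40 had no overlap between DPI + DNFB and non-treated arrays (44.4% of all genes), 14 between DNFB and non-treated (41.5%), 15 between H2O2 and non-treated (42.8%) and 14 between DPI and non-treated (46.2%). Between treatments it was 19 for DPI + DNFB and DNFB (52.3% of all genes), 14 for DPI + DNFB and DPI (38.6%) and 13 for DNFB and H2O2 (33%).

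**Figure D2:**
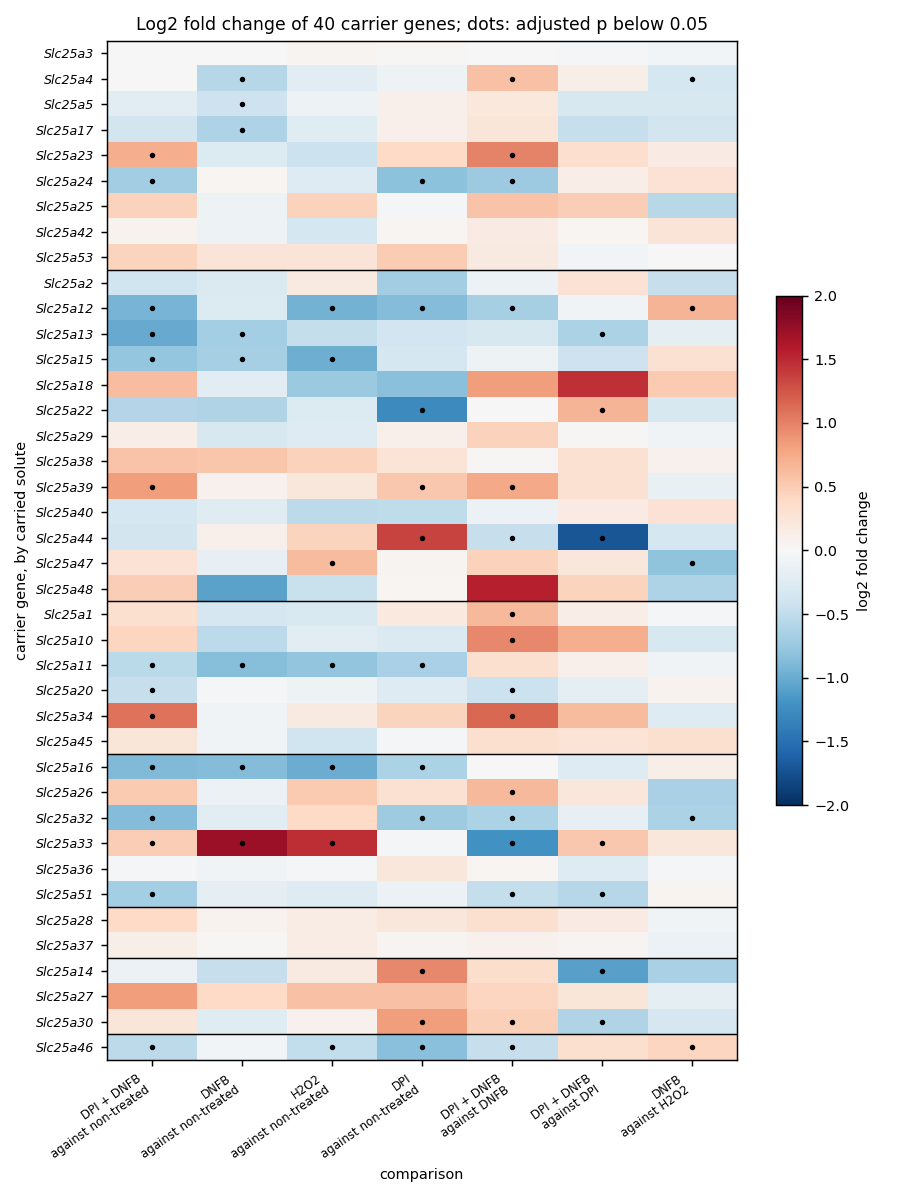
Log2 fold change of each of the 40 tested carrier genes (rows, grouped by carried solute) in the 7 pairwise comparisons (columns), with a dot on each passing value. Slc25a33 is high in the DNFB and H2O2 columns (1.71 and 1.48), Slc25a44 in the DPI column (1.35), and Slc25a11 and Slc25a16 are below 0 in all 4 columns against non-treated cells.

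The largest increase against non-treated cells was that of Slc25a33, the pyrimidine nucleotide carrier that supplies the matrix with nucleotides for mitochondrial DNA and RNA synthesis. The signals of Slc25a33 read 565, 608 and 687 with DPI + DNFB and 1395, 1393 and 1579 with DNFB. With H2O2 they were 1131, 1330.4 and 1248 and with DPI 458, 393 and 411, against 329.6, 537 and 456 in non-treated cells. The DNFB and H2O2 arrays all lay above every other array, and the DPI + DNFB arrays lay just above the non-treated ones. Slc25a33 was 3.28-fold higher (log2 1.71 ± 0.16, adjusted p = 1.63e-07) with DNFB and 2.79-fold higher (log2 1.48 ± 0.16, adjusted p = 9.16e-07) with H2O2 than in non-treated cells. With DPI + DNFB it was 1.41-fold higher than in non-treated cells (log2 0.50 ± 0.16, adjusted p = 0.0205) and 2.32-fold lower than with DNFB (log2 -1.21 ± 0.16, adjusted p = 4.42e-06). With DPI alone it did not pass (log2 -0.043 ± 0.16, adjusted p = 0.876).

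**Figure D3:**
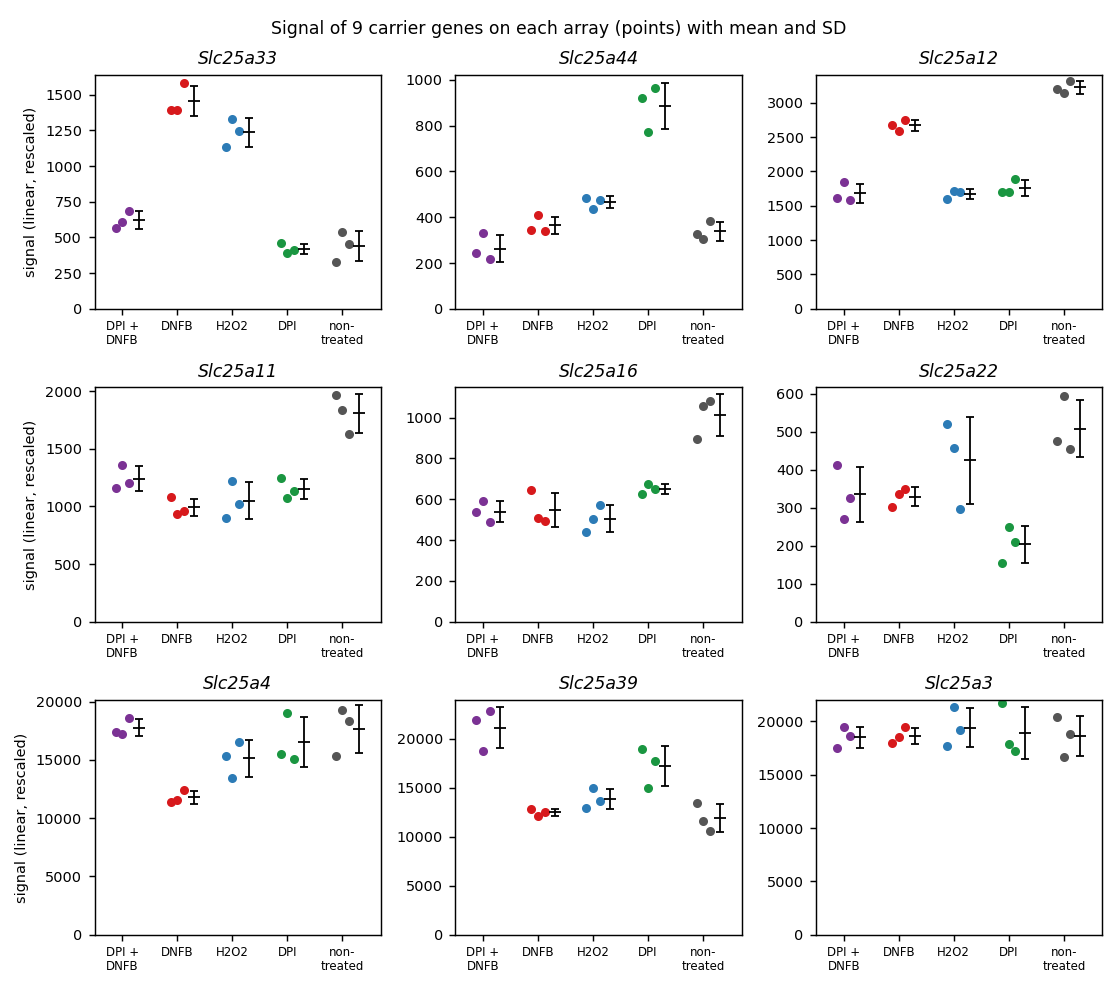
Rescaled signal of 9 carrier genes on each of the 15 arrays (points; linear axis from 0), by treatment group from DPI + DNFB at the left to non-treated at the right, with the group mean ± SD beside them (n = 3). Slc25a33 is highest in the DNFB and H2O2 arrays, Slc25a44 in the DPI arrays, and the phosphate carrier Slc25a3 lies at like levels in all 5 groups.

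The 250 bases upstream of the start that the RefSeq promoter table gives for Slc25a33 are shown because it had the largest increase, and those of Slc25a11 and Slc25a16 because these fell in all 4 treatments. The window of Slc25a11 lies wholly inside the annotated span of the gene, which reaches farther upstream than this start. That of Slc25a16 shares 1 base with its gene's span, and that of Slc25a33 none. Sequences are from RefSeq on GRCm38.p6, 5′ to 3′ on the gene's strand. Capitals mark matches to the 6 motifs searched on both strands.
Slc25a33 (chr4:149774268-149774517, minus strand): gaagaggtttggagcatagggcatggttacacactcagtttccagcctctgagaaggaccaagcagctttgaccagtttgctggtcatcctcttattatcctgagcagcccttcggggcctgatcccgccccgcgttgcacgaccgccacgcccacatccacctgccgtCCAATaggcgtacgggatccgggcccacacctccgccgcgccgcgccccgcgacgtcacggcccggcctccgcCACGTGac
Slc25a11 (chr11:70647040-70647289, minus strand): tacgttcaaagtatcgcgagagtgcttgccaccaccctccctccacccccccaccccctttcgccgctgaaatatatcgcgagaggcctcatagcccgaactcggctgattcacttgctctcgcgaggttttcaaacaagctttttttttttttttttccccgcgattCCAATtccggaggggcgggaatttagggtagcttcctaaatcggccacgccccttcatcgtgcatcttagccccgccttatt
Slc25a16 (chr10:62920383-62920632, plus strand): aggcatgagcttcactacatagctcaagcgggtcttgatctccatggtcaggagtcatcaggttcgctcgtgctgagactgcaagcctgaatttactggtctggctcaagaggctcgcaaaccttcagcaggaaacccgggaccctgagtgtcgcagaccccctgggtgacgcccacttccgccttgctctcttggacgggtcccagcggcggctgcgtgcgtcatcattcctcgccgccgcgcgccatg
The E-box motif CACGTG, a binding sequence of MYC, USF and related factors, lay at bases -8 to -3 of Slc25a33 and a CCAAT box at -81 to -77. Slc25a11 held a CCAAT box at -82 to -78, and Slc25a16 held none of the motifs. Promoters were given for 34 of the 44 members, 43 windows in all. CACGTG was in 8 of these 43 windows (18.6%) and in 6.02% of all 32851 windows of the same length. CCAAT was in 20 (46.5%) and 33.8%, the cAMP response element TGACGTCA in 2 (4.65%) and 1.55%, and the NRF-1 site (GCGC and TGCGC with 1 base between) in 2 (4.65%) and 3.74%. The antioxidant response element core (TGAC and GCA with 3 bases between) was in 2 (4.65%), both of Slc25a23, against 2.47% of all windows, and the C/EBP-ATF element TGATGNAA in 0 against 3.45%. None of the matches of the 3 windows shown overlapped another. A match describes these letters only and is not a measured binding site.

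The cofactor and pyrimidine nucleotide carriers moved in both directions. Of the 6 cofactor and pyrimidine nucleotide carriers tested against non-treated cells, 1 rose and 3 fell with DPI + DNFB, 1 rose and 1 fell with DNFB, 1 rose and 1 fell with H2O2 and 0 rose and 2 fell with DPI. In that order 66.7%, 33.3%, 33.3% and 33.3% of these carriers passed, beside 33.8%, 24.4%, 28.3% and 31.8% of all genes. Slc25a16, which has been linked to coenzyme A supply of the matrix, was lower in all 4 treatments. Slc25a16 gave signals of 536, 594 and 489.7 with DPI + DNFB and 644, 507 and 492 with DNFB. H2O2 arrays gave 439.5, 505 and 570.2 and DPI arrays 625, 673 and 649, against 896, 1059 and 1083 in non-treated cells. All 12 treated arrays lay below the 3 non-treated ones. The decrease was log2 -0.89 ± 0.152, adjusted p = 0.000153 with DPI + DNFB, log2 -0.87 ± 0.152, adjusted p = 0.000218 with DNFB, log2 -0.99 ± 0.152, adjusted p = 5.72e-05 with H2O2 and log2 -0.63 ± 0.152, adjusted p = 0.00359 with DPI. Slc25a32 carries folate and FAD. On the arrays, Slc25a32 stood at 263, 309.8 and 420.4 with DPI + DNFB and 426, 580.1 and 544 with DNFB. It read 757, 789 and 877 with H2O2 and 305, 453 and 349.7 with DPI, against 691, 573 and 558 in non-treated cells. The arrays with DPI, alone or with DNFB, lay below the non-treated ones. Slc25a32 was 1.82-fold lower (log2 -0.87 ± 0.192, adjusted p = 0.00162) with DPI + DNFB and 1.63-fold lower (log2 -0.71 ± 0.192, adjusted p = 0.00779) with DPI than in non-treated cells, and 1.55-fold lower with DPI + DNFB than with DNFB (log2 -0.63 ± 0.192, adjusted p = 0.0112).

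Slc25a51 is the NAD+ carrier of mammalian mitochondria. Signals for Slc25a51 came to 867, 940.1 and 615 with DPI + DNFB and 1266, 1044 and 1048 with DNFB. Under H2O2 there were 1108, 1065 and 1030.3 and under DPI 1168, 1092 and 1305, against 1314, 1206 and 1333 in non-treated cells. The DPI + DNFB arrays were the lowest of the 15. Slc25a51 was 1.6-fold lower (log2 -0.68 ± 0.145, adjusted p = 0.00116) with DPI + DNFB than without treatment, and 1.48-fold lower than with DPI (log2 -0.57 ± 0.145, adjusted p = 0.00634), and in both comparisons another of its kept probe sets had the opposite sign. Slc25a26 carries S-adenosylmethionine, the methyl donor. Signals of Slc25a26 were 365, 395 and 275 with DPI + DNFB and 184, 208 and 247 with DNFB. The H2O2 arrays held 446, 312 and 279.7 and the DPI arrays 224, 283 and 383, against 201, 265 and 233 in non-treated cells. It was 1.57-fold higher with DPI + DNFB than with DNFB (log2 0.65 ± 0.239, adjusted p = 0.0322), where another of its probe sets also had the opposite sign, and passed in no other comparison. Slc25a36, the second pyrimidine nucleotide carrier, passed in none, with log2 changes of -0.032, -0.074, -0.04 and 0.22 with DPI + DNFB, DNFB, H2O2 and DPI (adjusted p between 0.111 and 0.838).

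Carriers of the malate-aspartate shuttle, which moves reducing equivalents from cytosolic NADH into the matrix, fell against non-treated cells in 4 (Slc25a11), 3 (Slc25a12) and 2 (Slc25a13) of the 4 treatments. Of all genes, 18.7% fell with DPI + DNFB, 13.9% with DNFB, 17.4% with H2O2 and 18.4% with DPI. The shuttle was not one of the lists counted here, so these counts do not bear on it as a set. Slc25a11 exchanges oxoglutarate for malate. The signals of Slc25a11 read 1157, 1361 and 1201 with DPI + DNFB and 1078, 934 and 959 with DNFB. With H2O2 they were 899.9, 1221 and 1024 and with DPI 1243, 1069.7 and 1136, against 1962, 1833 and 1623 in non-treated cells. As for Slc25a16, all treated arrays were below all non-treated ones. The decrease was log2 -0.54 ± 0.131, adjusted p = 0.00344 with DPI + DNFB, log2 -0.86 ± 0.131, adjusted p = 5.73e-05 with DNFB, log2 -0.78 ± 0.131, adjusted p = 0.000134 with H2O2 and log2 -0.64 ± 0.131, adjusted p = 0.000816 with DPI. Slc25a12 and Slc25a13 are the calcium-regulated aspartate-glutamate carriers. Slc25a12 gave signals of 1617, 1842 and 1581 with DPI + DNFB and 2677, 2592 and 2751 with DNFB. H2O2 arrays gave 1593, 1717 and 1703 and DPI arrays 1695, 1698 and 1896, against 3199, 3147 and 3321 in non-treated cells. Slc25a12 arrays with H2O2, DPI and DPI + DNFB lay below those with DNFB, which in turn lay below the non-treated ones. It was 1.91-fold lower (log2 -0.94 ± 0.1, adjusted p = 1.1e-06) with DPI + DNFB, 1.92-fold lower (log2 -0.94 ± 0.1, adjusted p = 7.53e-07) with H2O2 and 1.82-fold lower (log2 -0.87 ± 0.1, adjusted p = 1.93e-06) with DPI, and the DNFB difference did not pass (log2 -0.27 ± 0.1, adjusted p = 0.0571). Slc25a12 was 1.59-fold higher with DNFB than with H2O2 (log2 0.67 ± 0.1, adjusted p = 0.000135) and lower with DPI + DNFB than with DNFB (log2 -0.67 ± 0.1, adjusted p = 1.91e-05), where another kept probe set had the opposite sign. On the arrays, Slc25a13 stood at 218, 150.1 and 219.8 with DPI + DNFB and 272, 224 and 243 with DNFB. It read 346, 263 and 249.97 with H2O2 and 382, 240.5 and 313 with DPI, against 424, 361 and 427 in non-treated cells. Slc25a13 was 2.01-fold lower (log2 -1.01 ± 0.222, adjusted p = 0.00155) with DPI + DNFB and 1.6-fold lower (log2 -0.68 ± 0.222, adjusted p = 0.0293) with DNFB, and did not pass with H2O2 (log2 -0.48 ± 0.222, adjusted p = 0.115) or DPI (log2 -0.38 ± 0.222, adjusted p = 0.219).

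The amino acid and glutathione carriers went in both directions. Of the 13 amino acid and glutathione carriers tested against non-treated cells, 1 rose and 3 fell with DPI + DNFB, 0 rose and 2 fell with DNFB, 1 rose and 2 fell with H2O2 and 2 rose and 2 fell with DPI. This is 30.8%, 15.4%, 23.1% and 30.8% of the list, beside 33.8%, 24.4%, 28.3% and 31.8% of all genes. The list also holds Slc25a47 and Slc25a48, whose solutes were not tested here, and the 1 that rose with H2O2 was Slc25a47. Slc25a44, a carrier of branched-chain amino acids, had the largest response to DPI. Signals for Slc25a44 came to 242, 330.2 and 217 with DPI + DNFB and 344, 408 and 339.9 with DNFB. Under H2O2 there were 486, 435 and 476 and under DPI 919, 772 and 963, against 327, 304 and 385 in non-treated cells. The DPI arrays were the highest of the 15 and the DPI + DNFB arrays overlapped the non-treated ones. Slc25a44 was 2.54-fold higher (log2 1.35 ± 0.18, adjusted p = 1.03e-05) with DPI than in non-treated cells and 3.27-fold lower with DPI + DNFB than with DPI (log2 -1.71 ± 0.18, adjusted p = 2.81e-06). A second of its 3 kept probe sets gave log2 changes of 1.17 and -1.49 in these comparisons, and the third gave 0.22 and 0.17. Slc25a22 imports glutamate together with a proton. Signals of Slc25a22 were 412, 269 and 325 with DPI + DNFB and 303, 336 and 350.3 with DNFB. The H2O2 arrays held 521, 457 and 297 and the DPI arrays 153, 251 and 209.6, against 477, 595 and 455 in non-treated cells. DPI gave its lowest arrays. Slc25a22 was 2.41-fold lower (log2 -1.27 ± 0.231, adjusted p = 0.000281) with DPI, and 1.6-fold higher with DPI + DNFB than with DPI (log2 0.68 ± 0.231, adjusted p = 0.0334), while DPI + DNFB and DNFB each missed the threshold against non-treated cells (log2 -0.59 ± 0.231, adjusted p = 0.0544 and log2 -0.60 ± 0.231, adjusted p = 0.0668).

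Slc25a15 exchanges ornithine for citrulline across the inner membrane. The signals of Slc25a15 read 733, 664 and 701 with DPI + DNFB and 714, 880.1 and 684 with DNFB. With H2O2 they were 550.0, 552 and 733 and with DPI 782, 1121 and 946, against 1112, 1311 and 1209 in non-treated cells. It was 1.71-fold lower (log2 -0.78 ± 0.157, adjusted p = 0.000723) with DPI + DNFB, 1.59-fold lower (log2 -0.67 ± 0.157, adjusted p = 0.00328) with DNFB and 1.97-fold lower (log2 -0.98 ± 0.157, adjusted p = 8.52e-05) with H2O2, and with DPI it did not pass (log2 -0.36 ± 0.157, adjusted p = 0.0922). Slc25a39 imports glutathione, the main thiol reductant of the matrix. Slc25a39 gave signals of 21902, 18761 and 22860.4 with DPI + DNFB and 12837, 12142 and 12565 with DNFB. H2O2 arrays gave 12975, 15028 and 13677 and DPI arrays 18965, 15013 and 17769, against 13459.7, 11603 and 10634 in non-treated cells. The DPI + DNFB and DPI arrays all lay above the non-treated ones. Slc25a39 was 1.78-fold higher (log2 0.83 ± 0.116, adjusted p = 1.81e-05) with DPI + DNFB and 1.45-fold higher (log2 0.54 ± 0.116, adjusted p = 0.00136) with DPI, but did not pass with DNFB (log2 0.079 ± 0.116, adjusted p = 0.696) or H2O2 (log2 0.23 ± 0.116, adjusted p = 0.158). Its paralog Slc25a40 passed in no comparison, with log2 -0.35 ± 0.227, adjusted p = 0.255 with DPI + DNFB. Slc25a47 is known mainly from liver. On the arrays, Slc25a47 stood at 209.7, 263 and 248 with DPI + DNFB and 160.3, 139 and 214 with DNFB. It read 322, 322 and 276 with H2O2 and 199.9, 166 and 244 with DPI, against 189, 186 and 200.5 in non-treated cells. It was 1.55-fold higher with H2O2 than without treatment (log2 0.63 ± 0.229, adjusted p = 0.0442) and 1.75-fold lower with DNFB than with H2O2 (log2 -0.80 ± 0.229, adjusted p = 0.022). Slc25a38, the glycine carrier used for heme synthesis, did not pass with any treatment (log2 0.57 ± 0.272, adjusted p = 0.112 with DPI + DNFB and log2 0.55 ± 0.272, adjusted p = 0.158 with DNFB).

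Mitochondrial carriers of adenine nucleotides and phosphate supply ATP synthase and export its product. The list of such carriers also holds Slc25a17 of peroxisomes and Slc25a53, whose solute was not tested here. Against non-treated cells, 1 of the 9 genes tested from this list rose and 1 fell with DPI + DNFB. With DNFB 0 rose and 3 fell, with H2O2 0 rose and 0 fell, and with DPI 0 rose and 1 fell. The shares that passed were 22.2%, 33.3%, 0% and 11.1%, beside 33.8%, 24.4%, 28.3% and 31.8% of all genes. Slc25a4, an ADP/ATP carrier known from heart and muscle, was lower with DNFB. Signals for Slc25a4 came to 17390.0, 17249 and 18581 with DPI + DNFB and 11388, 11561 and 12376 with DNFB. Under H2O2 there were 15369, 13462 and 16566 and under DPI 15505, 18992 and 15058, against 15312, 19272 and 18304 in non-treated cells. Its DNFB arrays were the lowest of the 15. Slc25a4 was 1.49-fold lower (log2 -0.58 ± 0.115, adjusted p = 0.000833) with DNFB than without treatment, and 1.51-fold higher with DPI + DNFB than with DNFB (log2 0.59 ± 0.115, adjusted p = 0.000314). Slc25a5, the ADP/ATP carrier of proliferating cells, was 1.34-fold lower with DNFB (log2 -0.42 ± 0.123, adjusted p = 0.0161); its probe set may cross-hybridise with near-identical copies of the gene. The phosphate carrier Slc25a3 passed in no comparison, and its log2 change lay between -0.055 and 0.06 in the 7 of them. Slc25a17 carries adenine nucleotides and cofactors across the peroxisomal membrane. Signals of Slc25a17 were 520.0, 712 and 572 with DPI + DNFB and 455, 519 and 530.4 with DNFB. The H2O2 arrays held 487, 897 and 630.1 and the DPI arrays 828, 756 and 913, against 854, 682 and 798 in non-treated cells. It was 1.53-fold lower (log2 -0.62 ± 0.187, adjusted p = 0.0192) with DNFB and passed in no other comparison.

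The ATP-Mg/phosphate carriers Slc25a23 and Slc25a24, which adjust the adenine nucleotide content of the matrix in response to calcium, had changes of opposite sign with DPI + DNFB. With the beta-actin ratio as a covariate that of Slc25a23 was -0.084 on the log2 scale (limma, adjusted p = 0.898). That ratio was 2.07, 1.5 and 2.29 in the DPI + DNFB arrays and 1.25 in each non-treated array. The estimate therefore cannot separate the ratio from the treatment. The signals of Slc25a23 read 691, 479 and 841 with DPI + DNFB and 344, 364 and 265 with DNFB. With H2O2 they were 275, 259 and 327 and with DPI 506, 451 and 603, against 388, 349.6 and 438 in non-treated cells. The DPI + DNFB arrays of Slc25a23 overlapped the DPI arrays and lay above all others, 1.65-fold above non-treated cells (log2 0.72 ± 0.205, adjusted p = 0.0101) and 1.98-fold above DNFB (log2 0.99 ± 0.205, adjusted p = 0.000563). Slc25a24 gave signals of 2481, 2721 and 1977 with DPI + DNFB and 4398, 4099 and 3346 with DNFB. H2O2 arrays gave 3389, 3002 and 3209 and DPI arrays 2170.0, 2294 and 2019, against 3688, 3668 and 4157 in non-treated cells. Slc25a24 was lowest in both groups that received DPI, 1.61-fold lower (log2 -0.69 ± 0.126, adjusted p = 0.000287) with DPI + DNFB and 1.77-fold lower (log2 -0.82 ± 0.126, adjusted p = 4.66e-05) with DPI. It was also 1.65-fold lower with DPI + DNFB than with DNFB (log2 -0.72 ± 0.126, adjusted p = 9.9e-05). The paralog Slc25a25 did not pass with DPI + DNFB (log2 0.46 ± 0.288, adjusted p = 0.23) or in any other comparison.

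The list of carboxylate and acylcarnitine carriers includes Slc25a34, which has no settled substrate. Between DPI + DNFB and DNFB, Slc25a1, Slc25a10 and Slc25a34 were higher and Slc25a20 was lower. Of the 6 carboxylate and acylcarnitine carriers tested against non-treated cells, 1 rose and 2 fell with DPI + DNFB, 0 rose and 1 fell with DNFB, 0 rose and 1 fell with H2O2 and 0 rose and 1 fell with DPI. The 1 that rose was Slc25a34. Their shares were 50%, 16.7%, 16.7% and 16.7% in that order, beside 33.8%, 24.4%, 28.3% and 31.8% of all genes. Slc25a10, the dicarboxylate carrier of malate and succinate, had a wide spread between replicates. On the arrays, Slc25a10 stood at 730.4, 377 and 680.3 with DPI + DNFB and 339.8, 269.9 and 258 with DNFB. It read 494, 286 and 335 with H2O2 and 310.0, 234 and 548 with DPI, against 550.0, 367 and 365 in non-treated cells. Slc25a10 was 1.95-fold higher with DPI + DNFB than with DNFB (log2 0.96 ± 0.292, adjusted p = 0.0113), and against non-treated cells neither passed (log2 0.44 ± 0.292, adjusted p = 0.266 with DPI + DNFB and log2 -0.52 ± 0.292, adjusted p = 0.223 with DNFB). Slc25a1 exports citrate for cytosolic acetyl-CoA. Signals for Slc25a1 came to 1137, 1144 and 1278 with DPI + DNFB and 837, 640.4 and 776 with DNFB. Under H2O2 there were 881, 646 and 789.5 and under DPI 1185, 1072 and 999, against 1088, 877 and 888 in non-treated cells. DPI + DNFB arrays lay above DNFB arrays, 1.58-fold (log2 0.66 ± 0.146, adjusted p = 0.00103). Signals of Slc25a34 were 200.1, 148 and 251 with DPI + DNFB and 119, 65.3 and 64.1 with DNFB. The H2O2 arrays held 124, 95 and 79.4 and the DPI arrays 177, 104 and 96.4, against 87.9, 45.9 and 143 in non-treated cells. It was 2.11-fold higher (log2 1.08 ± 0.394, adjusted p = 0.0405) with DPI + DNFB than without treatment and 2.22-fold higher than with DNFB (log2 1.15 ± 0.394, adjusted p = 0.023). Slc25a20, which brings acylcarnitines in for fatty acid oxidation, was 1.37-fold lower with DPI + DNFB than without treatment (log2 -0.45 ± 0.169, adjusted p = 0.0447), with overlapping groups.

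Of the uncoupling protein branch, a set of carriers that can pass protons or anions, Slc25a14 and Slc25a30 rose with DPI. Of the 3 members of the branch tested against non-treated cells, 0 rose and 0 fell with DPI + DNFB, 0 rose and 0 fell with DNFB, 0 rose and 0 fell with H2O2 and 2 rose and 0 fell with DPI. The branch shares were 0%, 0%, 0% and 66.7%, beside 33.8%, 24.4%, 28.3% and 31.8% of all genes, and a share of 3 genes is coarse. These 3 do not include Ucp2, which was not analysed here. The signals of Slc25a14 read 379, 347 and 142 with DPI + DNFB and 182, 204 and 233 with DNFB. With H2O2 they were 319.7, 337 and 329.6 and with DPI 555, 612 and 573, against 328, 260.4 and 283 in non-treated cells. The DPI arrays of Slc25a14 were the highest, 1.96-fold higher (log2 0.97 ± 0.261, adjusted p = 0.00743) than without treatment, and DPI + DNFB arrays were 2.11-fold lower than those with DPI (log2 -1.08 ± 0.261, adjusted p = 0.00433). Slc25a30 gave signals of 645, 722 and 626 with DPI + DNFB and 553, 460.1 and 416 with DNFB. H2O2 arrays gave 501, 696 and 614 and DPI arrays 1129.6, 1062 and 870.0, against 561, 522 and 599.7 in non-treated cells. Slc25a30 was likewise 1.79-fold higher (log2 0.84 ± 0.159, adjusted p = 0.000415) with DPI and 1.52-fold lower with DPI + DNFB than with DPI (log2 -0.60 ± 0.159, adjusted p = 0.00791), where another kept probe set had the opposite sign. The third member of the branch tested, Slc25a27, passed in no comparison (log2 0.59 ± 0.527, adjusted p = 0.449 with DPI). Slc25a46 is unusual in that it sits in the outer membrane, where it takes part in mitochondrial fission and lipid transfer. On the arrays, Slc25a46 stood at 2090.4, 1972 and 2196 with DPI + DNFB and 2958, 3152 and 2559.5 with DNFB. It read 2088, 2521 and 1833 with H2O2 and 1638, 1680.0 and 1681 with DPI, against 2879.7, 3243 and 2889 in non-treated cells. It was 1.44-fold lower (log2 -0.52 ± 0.119, adjusted p = 0.002) with DPI + DNFB, 1.41-fold lower (log2 -0.49 ± 0.119, adjusted p = 0.0037) with H2O2 and 1.79-fold lower (log2 -0.84 ± 0.119, adjusted p = 1.97e-05) with DPI, and with DNFB it did not pass (log2 -0.059 ± 0.119, adjusted p = 0.791). The mitoferrins Slc25a28 and Slc25a37, which bring iron into the matrix, passed in none of the comparisons (log2 0.40 ± 0.181, adjusted p = 0.097 and log2 0.11 ± 0.181, adjusted p = 0.665 with DPI + DNFB).

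The 15 members that passed in no pairwise comparison were Slc25a2, Slc25a3, Slc25a18, Slc25a25, Slc25a27, Slc25a28, Slc25a29, Slc25a36, Slc25a37, Slc25a38, Slc25a40, Slc25a42, Slc25a45, Slc25a48 and Slc25a53. Their log2 changes reached from -1.06 to 1.55, both of Slc25a48 (log2 -1.06 ± 0.698, adjusted p = 0.313 for DNFB against non-treated and log2 1.55 ± 0.698, adjusted p = 0.0777 for DPI + DNFB against DNFB). Of the 4 members below the signal filter, the median over the 15 arrays was 4.43 for Slc25a31, an ADP/ATP carrier of testis, 51.8 for Slc25a35, 5.06 for Slc25a41 and 53.9 for Slc25a54. With the interaction described below counted as a comparison too, 40 passing pairs were of members with more than 1 kept probe set. In 8 of these 40 pairs another kept probe set had the opposite sign.

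With DNFB against non-treated cells, Slc25a33 rose, and Slc25a16, Slc25a11, Slc25a13, Slc25a15, Slc25a17, Slc25a4 and Slc25a5 fell by 0.42 to 0.87 on the log2 scale. The calls of Slc25a13, Slc25a17 and Slc25a5 ended without non-treated replicate 1 (log2 -0.64, -0.55 and -0.38) or 3 (-0.64, -0.59 and -0.40), which left 5 and 5 of the 8 calls. They also ended without DNFB replicate 2 for Slc25a13 and Slc25a5 (-0.62 and -0.35), replicate 3 for Slc25a13 (-0.67) and replicate 1 for Slc25a17 (-0.55). With the scaling target as a block 9 members passed, against 6 among arrays with a target of 250 and 4 among arrays with 500.

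With H2O2, Slc25a33 and Slc25a47 rose, and Slc25a16, Slc25a15, Slc25a12, Slc25a11 and Slc25a46 fell by 0.49 to 0.99 on the log2 scale. The Slc25a47 call ended without DNFB replicate 1, H2O2 replicate 1, 2 or 3 or non-treated replicate 1, 2 or 3 (log2 0.60 to 0.70). The count was 8 with the scaling target as a block, 5 among the arrays of target 250 and 7 among those of 500. Between DNFB and H2O2, Slc25a12 and Slc25a46 were higher and Slc25a47, Slc25a32 and Slc25a4 lower with DNFB (0.67, 0.43, -0.80, -0.64 and -0.36). The call of Slc25a46 ended without DNFB replicate 1 or 2 or H2O2 replicate 1 or 3 (log2 0.33 to 0.42), and that of Slc25a47 without DNFB replicate 1 or 2 or H2O2 replicate 1 or 2 (log2 -0.77 to -0.68). The call of Slc25a32 ended without DNFB replicate 1 or 3 or H2O2 replicate 2 or 3 (log2 -0.68 to -0.51), and that of Slc25a4 without DNFB replicate 1, 2 or 3, H2O2 replicate 1 or 3 or non-treated replicate 3 (log2 -0.39 to -0.29). The count ran from 1 to 6 when single arrays were left out. With the scaling target as a block 4 members passed, against 1 among arrays with a target of 250 and 0 among arrays with 500.

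With DPI alone Slc25a44, Slc25a14, Slc25a30 and Slc25a39 rose, and Slc25a22, Slc25a12, Slc25a46, Slc25a24, Slc25a32, Slc25a11 and Slc25a16 fell. The increases were 0.54 to 1.35 and the decreases -1.27 to -0.63 on the log2 scale. All 11 calls held when each of the 15 arrays was left out in turn. The count was 12 with the scaling target as a block, 7 among the arrays of target 250 and 10 among those of 500.

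With DPI + DNFB Slc25a34, Slc25a39, Slc25a23 and Slc25a33 rose over non-treated cells, and those that fell were Slc25a13, Slc25a12, Slc25a16, Slc25a32, Slc25a15, Slc25a24, Slc25a51, Slc25a11, Slc25a46 and Slc25a20. Beside these stand the beta-actin ratios of 2.07, 1.5 and 2.29 in the DPI + DNFB arrays. With that ratio as a covariate 0 members rose and 5 fell, and with replicate 2 as the only DPI + DNFB array 1 rose and 9 fell, the lone array being assumed to vary like the other groups. With arrays centred on their median, which lowered the median of all genes by 0.252 here, 1 rose and 14 fell. For these settings, here and in the comparisons below, the share of all genes that passed was not computed. The changed counts therefore cannot be read as particular to the carriers. Among the 4 increases the Slc25a34 call ended without non-treated replicate 1 or 2 (log2 1.10 and 0.72) or DPI + DNFB replicate 1 or 3 (1.06 and 0.91). That of Slc25a33 ended without non-treated replicate 1 (0.31) or DPI + DNFB replicate 3 (0.42), and that of Slc25a23 without DPI + DNFB replicate 3 (0.54). The Slc25a20 decrease ended without DPI + DNFB replicate 1 or 2, DNFB replicate 3, H2O2 replicate 2, DPI replicate 2 or 3 or non-treated replicate 2 or 3 (log2 -0.47 to -0.31). With the scaling target as a block 14 members passed, against 6 among arrays with a target of 250 and 8 among arrays with 500.

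Set against DNFB, DPI + DNFB gave higher Slc25a34, Slc25a23, Slc25a10, Slc25a39, Slc25a1, Slc25a26, Slc25a4 and Slc25a30, and lower Slc25a33, Slc25a24, Slc25a12, Slc25a32, Slc25a51, Slc25a44, Slc25a46 and Slc25a20. The increases were 0.47 to 1.15 and the decreases -1.21 to -0.44 on the log2 scale, and the member median was 0.20 beside 0.10 over all genes. With the beta-actin ratio as a covariate 4 rose and 5 fell, and with replicate 2 as the only DPI + DNFB array 5 and 6. Median centring, which lowered the median of all genes by 0.274, gave 5 and 9. Without DPI + DNFB replicate 1, 10 members passed. Of the increases, the Slc25a10 call ended without DPI + DNFB replicate 1 or 3 (log2 0.79 to 0.84), that of Slc25a26 without DPI + DNFB replicate 1 or 2 or DNFB replicate 1 or 2 (log2 0.55 to 0.64), that of Slc25a30 without DPI + DNFB replicate 2 or DNFB replicate 2 or 3 (log2 0.38 to 0.46) and that of Slc25a34 without DPI + DNFB replicate 1 or 3 or DNFB replicate 2 or 3 (log2 0.98 to 1.13). Of the decreases, the Slc25a32 call ended without DPI + DNFB replicate 1 or DNFB replicate 2 (log2 -0.54 to -0.49) and the Slc25a51 call without DPI + DNFB replicate 3 or DNFB replicate 1 (log2 -0.39 to -0.30). The Slc25a20 call ended without DPI + DNFB replicate 1 or 2, DNFB replicate 2 or 3, DPI replicate 3 or non-treated replicate 3 (log2 -0.45 to -0.29), and the Slc25a44 call without DPI + DNFB replicate 1 or 3, DNFB replicate 1, 2 or 3 or DPI replicate 1 or 3 (log2 -0.51 to -0.34). The count was 16 with the scaling target as a block, 10 among the arrays of target 250 and 7 among those of 500.

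DPI + DNFB against DPI compares the allergen in inhibitor-treated cells. Slc25a22 and Slc25a33 were higher (0.68 and 0.54), and Slc25a44, Slc25a14, Slc25a13, Slc25a30 and Slc25a51 lower (-1.71, -1.08, -0.63, -0.60 and -0.57). The member median was 0.12 beside 0.08 over all genes. With the beta-actin ratio as a covariate 0 rose and 1 fell, and with replicate 2 as the only DPI + DNFB array 0 and 2. Median centring, which lowered the median of all genes by 0.253, gave 0 and 10, and 12 members passed without DPI + DNFB replicate 2. The call of Slc25a13 ended without DPI + DNFB replicate 2, DPI replicate 1 or 3 or non-treated replicate 3 (log2 -0.63 to -0.46), that of Slc25a22 without DPI + DNFB replicate 1 or 3 or DPI replicate 1 or 3 (log2 0.50 to 0.71), and that of Slc25a33 without DPI replicate 2 (0.50) or DPI + DNFB replicate 3 (0.47). With the scaling target as a block 11 members passed, against 4 among arrays with a target of 250 and 5 among arrays with 500.

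Whether the effect of DNFB depended on DPI was tested as an interaction, the difference between the DNFB effect with DPI and the DNFB effect without it. It passed for 5 members above 0 and 2 below 0, 17.5% of the 40, against 31.1% of all genes (17.3% above and 13.8% below). Those above 0 were Slc25a22 (log2 1.27 ± 0.326, adjusted p = 0.00525), Slc25a10 (log2 1.24 ± 0.413, adjusted p = 0.0266), Slc25a11 (log2 0.96 ± 0.185, adjusted p = 0.000522), Slc25a4 (log2 0.69 ± 0.163, adjusted p = 0.00307) and Slc25a16 (log2 0.61 ± 0.215, adjusted p = 0.036). All of these were lower with DNFB than in non-treated cells, with or without passing, and the DNFB effect in DPI-treated cells was nearer to 0 or positive. Slc25a44 (log2 -1.81 ± 0.254, adjusted p = 2.21e-05) and Slc25a33 (log2 -1.17 ± 0.226, adjusted p = 0.000527) were below 0. Of the other 2 kept probe sets of Slc25a44, one gave -1.35 for the interaction and the other 0.24, of opposite sign. Slc25a33 rose by 1.71 with DNFB alone and by 0.54 with DNFB in DPI-treated cells. The Slc25a10 call ended without DPI + DNFB replicate 1 or 3, DNFB replicate 2 or 3, DPI replicate 1 or 2 or non-treated replicate 1 (log2 0.98 to 1.20), and the Slc25a16 call without DPI + DNFB replicate 1 or 2, DNFB replicate 2 or 3, DPI replicate 1, 2 or 3 or non-treated replicate 2 or 3 (log2 0.54 to 0.64). With the beta-actin ratio as a covariate 5 members passed, and with replicate 2 as the only DPI + DNFB array 3 above and 2 below 0. Median centring, which lowered the median of all genes by 0.275, gave 2 above and 3 below. The count was 8 with the scaling target as a block, 5 among the arrays of target 250 and 3 among those of 500.

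**Figure D4:**
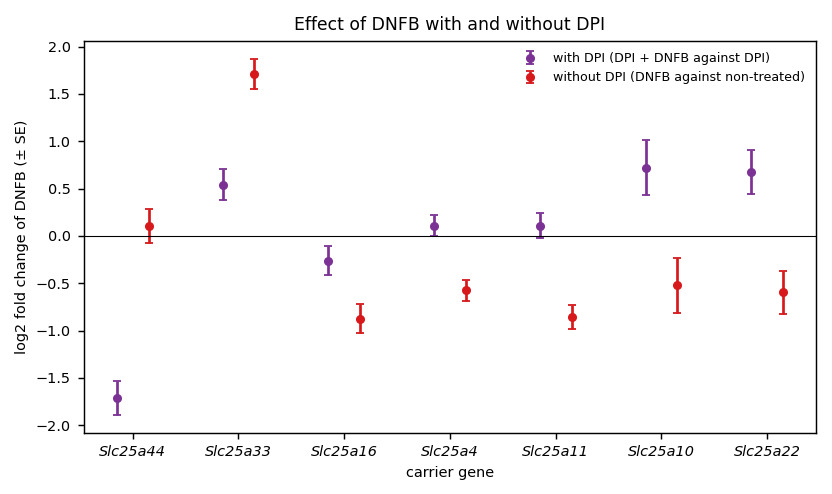
Log2 fold change of DNFB (y axis, ± SE) for the 7 carrier genes whose interaction passed (x axis), in cells with DPI (DPI + DNFB against DPI) and without it (DNFB against non-treated). Slc25a44 lies at -1.71 with DPI and 0.10 without, and Slc25a33 at 0.54 with DPI and 1.71 without.

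Genes that act beside the carriers were counted in 3 lists, which were chosen with earlier results of these data known. A share above or below that of all genes is therefore no test of a list. Shares with DPI + DNFB also stand beside the higher 3' to 5' ratios of its arrays. Of 15 genes tested for mitochondrial protein import and assembly, 5 rose and 4 fell with DPI + DNFB. With DNFB 0 rose and 4 fell, with H2O2 1 rose and 1 fell, and with DPI 1 rose and 4 fell. In that order these are 60%, 26.7%, 13.3% and 33.3% of the list, beside 33.8%, 24.4%, 28.3% and 31.8% of all genes. The DNFB decreases were those of the outer-membrane channel Tomm40 (-0.74), Timm10b (-0.61), Samm50 (-0.53) and Timm13 (-0.40), an intermembrane-space chaperone subunit that rose with DPI + DNFB (1.04). Values here are log2 changes against non-treated cells. Of 19 mitochondrial solute channels and transporters outside the family, 1 rose and 3 fell with DPI + DNFB, 1 rose and 3 fell with DNFB, 1 rose and 2 fell with H2O2 and 2 rose and 2 fell with DPI. These shares of 21.1%, 21.1%, 15.8% and 21.1% are all below those of all genes. With DNFB the serine transporter Sfxn1 (-1.13), the anion channel Vdac2 (-0.64) and the calcium uniporter Mcu (-0.63) fell and Ghitm (0.73) rose, and with DPI + DNFB Abcb10 (-1.06) and the pyruvate carrier subunit Mpc1 (-1.02) fell. Of 26 matrix enzymes that use carried solutes, 6 rose and 9 fell with DPI + DNFB, 1 rose and 15 fell with DNFB, 1 rose and 7 fell with H2O2 and 7 rose and 4 fell with DPI. The shares were 57.7%, 61.5%, 30.8% and 42.3% in that order, beside 33.8%, 24.4%, 28.3% and 31.8% of all genes. The largest decreases with DNFB were of the acyl-CoA dehydrogenase Acadm (-0.80), the formate-tetrahydrofolate ligase Mthfd1l (-0.65) and the isocitrate dehydrogenases Idh3a (-0.65) and Idh2 (-0.64). The folate enzyme Mthfd2 was higher with DPI + DNFB (1.16) and with DPI (0.74). The list medians with DNFB were -0.16 for import, -0.057 for transporters and -0.41 for matrix enzymes, beside -0.055 over all genes tested.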

How the data were processed

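Total RNA from 15 samples was hybridised to Affymetrix mouse arrays, 1 array a sample. The deposited values are intensity signals on a linear scale, made with MAS5 in Affymetrix Expression Console, per the submitters' processing notes, and each array's trimmed mean was 250 or 500. Each array was rescaled to a 2% trimmed mean of 500, and log2(signal + 15) was tested. Of 45101 probe sets, 34945 had 1 symbol, 932 several and 9160 none. Probe sets below the 40th percentile were left out (27022 were kept) and 1 probe set per gene (highest mean) was used. One limma fit (limma 3.58.1, R 4.3.3; lmFit, contrasts and eBayes with a trend) over all 5 groups gave 10 residual degrees of freedom and 8 comparisons. The number of arrays limits the precision (median SE 0.197). Values per array are given for members that passed in a pairwise comparison with a change of at least 1.5-fold; others are named or counted. Members and lists were chosen with earlier results of these data known. Ucp2 was not analysed here. No coordinates of genes are given, because the array files name no build.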

Additional observations from a re-analysis of the deposited data

Results flagged for a closer look

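For 7 carrier genes the effect of DNFB differed between cells with and without DPI in the test of that difference (limma, adjusted over all genes), and each is given as the effect with DPI minus the effect without it on the log2 scale. The difference was 1.27 for Slc25a22 (DNFB effect 0.68 with DPI and -0.60 without), 1.24 for Slc25a10 (0.72 and -0.52) and 0.96 for Slc25a11 (0.11 and -0.86). It was 0.69 for Slc25a4 (0.11 and -0.58) and 0.61 for Slc25a16 (-0.26 and -0.87). Below 0 were Slc25a44 at -1.81 (-1.71 and 0.10) and Slc25a33 at -1.17 (0.54 and 1.71). Another kept probe set of Slc25a44 had the opposite sign for this difference (0.24).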

How the results depend on the processing

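Counts are of carrier genes that passed (limma). The share of all genes that passed was not computed under these settings, so a changed count cannot be read as particular to the carriers. Within the arrays scaled to 250 every group but DNFB is a lone array, and within those scaled to 500 DNFB is, so counts there are no check by replication. On the values as deposited, without rescaling, 0 passed in all 8 comparisons, while at an unadjusted p below 0.05 there were 1 for DPI + DNFB against non-treated, 4 for DNFB, 2 for H2O2, 2 for DPI, 1 for DNFB against H2O2, 5 for DPI + DNFB against DNFB, 3 against DPI and 4 for the interaction. Within arrays scaled to 250 the counts were 6 for DPI + DNFB against non-treated, 10 against DNFB, 4 against DPI, 7 for DPI and 1 for DNFB against H2O2, and within arrays scaled to 500 they were 8 for DPI + DNFB against non-treated, 7 against DNFB, 4 for DNFB, 0 for DNFB against H2O2 (4 at an unadjusted p below 0.05) and 3 for the interaction. At an adjusted p below 0.01 they were 8 for DPI + DNFB against DNFB, 4 against DPI, 5 for DNFB and 1 for DNFB against H2O2, which without a filter or with median centring had 3. With the beta-actin ratio as a covariate they were 5 for DPI + DNFB against non-treated, 9 against DNFB and 1 against DPI, and Slc25a23 in DPI + DNFB against non-treated turned to -0.084 (adjusted p 0.898). The ratio goes with the DPI + DNFB group, so as a covariate it cannot be separated from that treatment. Keeping only replicate 2 of DPI + DNFB, an alternative chosen after seeing the data, gave 2 against DPI. Same-numbered arrays correlated at -0.00273 to 0.144 in their deviations, 9 of 30 pairs above 0.1. The labels state no pairing, and the numbers were not used as pairs because not every pair was above 0.1. All 15 arrays correlated best with their own number, a hint from the data and not the design. With the replicate block, DPI + DNFB against DPI had 11, as with the scaling target as a block, and the block moved no other count by over 1.5 times. Leaving out 1 array gave 11 to 17 for DPI + DNFB against non-treated, 10 to 17 against DNFB, 5 to 12 against DPI, 5 to 9 for DNFB, 6 to 8 for H2O2, 11 to 12 for DPI, 1 to 6 for DNFB against H2O2 and 5 to 7 for the interaction. Of 1423 recomputed calls of single genes under the other settings, 1138 held, 284 lost the threshold and 1 reversed; signal near the filter limits the weakest members.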
